A study of Drosophila melanogaster with 4 samples.

Results

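HP1c regions on the right arm of the third chromosome (3R) of Drosophila melanogaster were taken from the replicate set, the authors' list that combines both chromatin immunoprecipitation sequencing (ChIP-seq) libraries. A region was a member if it lay on 3R, was not named as depleted and had its midpoint more than 2 Mb from the start of the arm, which leaves out the stretch next to the centromere. This gave 1369 members of the 7116 enriched regions of the replicate set, or 19.2%. Each member was then followed in the list of each replicate, where the same stretch held 1188 regions in replicate 1 and 1110 in replicate 2.

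HP1c was precipitated with the antibody MO 462 from head nuclei of adult Oregon-R flies, a wild-type laboratory strain kept here in population cages and labelled as mixed adults. The series holds 4 samples, 2 HP1c ChIP libraries and 2 input libraries of the same strain, tissue and stage. Each input shares its replicate number with a ChIP library, though the numbers alone do not state which input served as its control. The inputs contribute no lists here. Heads hold many cell types, so a region stands for a mixture of neurons, glia and other head cells. Nothing in the labels ties the replicates to separate collections of flies. Each SD therefore measures the spread between 2 libraries, which may be technical. With 1 antibody and 1 tissue there is no second condition, and no test across samples was made.

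HP1c is one of the heterochromatin protein 1 family of flies. These proteins share a chromodomain, which in HP1a binds histone H3 methylated at lysine 9, and a chromoshadow domain, which joins them to each other and to partner proteins. HP1a is concentrated in heterochromatin next to centromeres, whereas HP1c is known mainly from euchromatin, where it works with the zinc-finger proteins WOC and ROW at active genes. The distal 25.9 Mb of 3R is mostly euchromatin of that kind. Coordinates follow FlyBase release 5, which the file headers name, and genes are not named because the gene table used here describes another release.

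The authors deposited a score for each region, above 0 where it is enriched. No source used here gives the scale, so scores rank regions within a list and are not read as fold enrichment. The lists hold no read counts, and the depth behind each region is therefore unknown. A region counted as found in a replicate when it shared at least 1 bp with an enriched region of that replicate.

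Most members were found in both libraries. Of the 1369 members, 1001 (73.1%, exact 95% interval 70.7 to 75.5, counting error only) overlapped a region in each replicate. Over the whole replicate set the share was 71.3%, so 3R lay close to the background. A further 158 members (11.5%, against 10.6% of the whole set) overlapped replicate 1 alone, 78 (5.70%, against 7.28%) replicate 2 alone, and 132 (9.64%, against 10.8%) neither. The replicate set was made from these libraries, so the shares describe how the list relates to its parts. The remaining large arms, each without the 2 Mb next to its centromere, had between 69.2% of regions in both replicates on X and 74.0% on 2R.

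The classes differed in score and width. Members found in both replicates had a median replicate-set score of 1.23 and a median width of 2472 bp. For replicate 1 alone the medians were 0.241 and 1820 bp, and for replicate 2 alone 0.268 and 1802 bp. Members found in neither had a median score of 0.307 and a median width of 1280 bp. Of these 132, 72 were narrower than 1303 bp, the narrowest region of either replicate on 3R.

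The members were also split into 4 equal parts by replicate-set score. That score comes from the same 2 libraries as the classes, so a link between them is partly built in and describes the list. In the lowest part, with scores up to 0.346, 74 of 343 members (21.6%) were in both replicates. In the second part, up to 0.773, 246 of 342 (71.9%) were in both. Above that score, 340 of 342 (99.4%) and 341 of 342 (99.7%) were. Above the median score, 3 members were thus missing from at least 1 replicate.

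**Figure D1:**
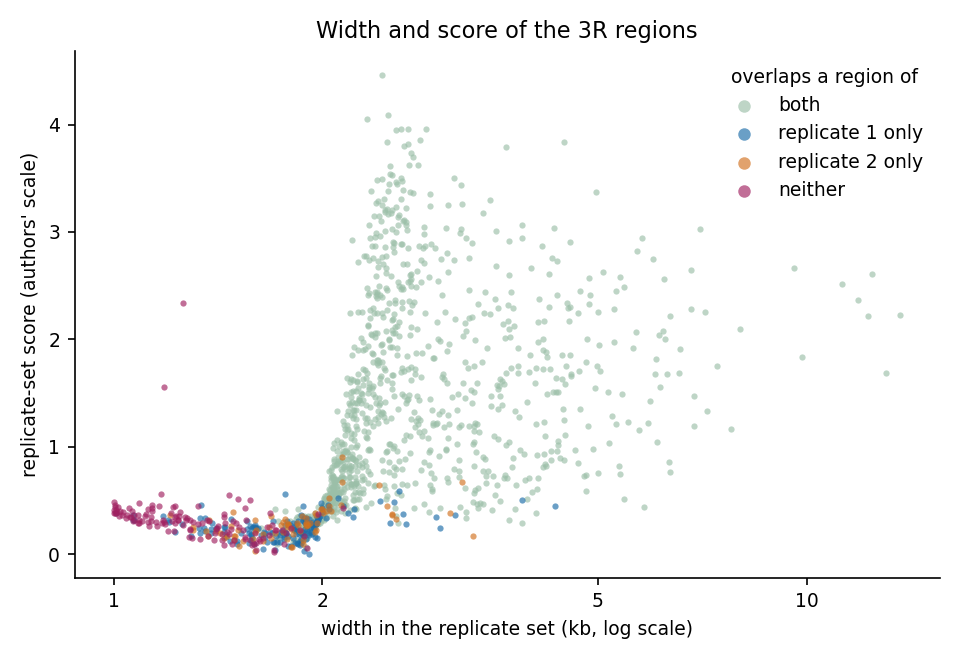
Width in the replicate set (kb, log scale) against replicate-set score (the authors' scale) for each of the 1369 members, coloured by the replicates in which the member was found. Members found in 1 replicate or in neither lie mostly at scores under 0.6, apart from 2 narrow members found in neither at 2.34 and 1.55 and a few found in replicate 2 alone.

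Score depended on width in a stepwise way. The 139 members under 1500 bp had a median score of 0.310 and the 281 members of 1500 to under 2000 bp one of 0.242. From 2000 bp the scores were higher, with medians of 0.888 in the 450 members of 2000 to under 2500 bp and 1.93 in the 204 members of 2500 to under 3000 bp. Wider members were not higher still, with medians of 1.51 in the 236 members of 3000 to under 5000 bp and 1.91 in the 59 members of 5000 bp or more. Across all members, Spearman's rho between width and score was 0.758. It was 0.613 among the 654 members of 2000 to under 3000 bp and 0.165 among the 295 of 3000 bp or more. Among the 420 under 2000 bp it was -0.103, and -0.145 on the other 4 large arms. At that width the replicate lists had positive values, 0.124 in replicate 1 and 0.245 in replicate 2. Width and score come from the same calls, and these correlations describe the lists.

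The same step was present in each library and on other arms. In replicate 1 the median score was 0.399 for regions of 1500 to under 2000 bp, 1.01 for 2000 to under 2500 bp and 1.87 for 2500 to under 3000 bp. In replicate 2 the corresponding values were 0.373, 1.32 and 2.27. On the other 4 large arms, replicate-set medians were 0.276, 0.835 and 1.61 for these widths. None of the 139 members under 1500 bp was found in both replicates, whereas 428 of the 450 members of 2000 to under 2500 bp (95.1%) and all 59 of 5000 bp or more were. The other 4 large arms were close to this, with 2 of 604 (0.331%), 1502 of 1589 (94.5%) and all 309 regions of these widths. The 59 members of 5000 bp or more made up 4.31% of members, against 6.28% of the whole replicate set.

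The highest scores lay mostly in members of 2000 to under 3000 bp. Of the 76 members with a score of 3 or more, 61 were of that width, against 654 of all 1369 members. Of the 76, 1 was wider than 5000 bp, against 59 of all members at 5000 bp or more. The median width of the 76 was 2598 bp, against 2250 bp over all members, and the narrowest was 2322 bp.

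The strongest HP1c region of the arm was 3R:3732017-3734459, 2443 bp wide, with a score of 4.46 in the replicate set. It scored 4.54 in replicate 1 and 4.39 in replicate 2, where it ranked 1 and 2 among 3R regions (4.46 ± 0.102, mean ± SD, n = 2). The second, 3R:5625627-5628111, scored 4.16 in replicate 1 and 4.05 in replicate 2 (ranks 3 and 10, mean 4.11 ± 0.0780, n = 2). The next pair had the higher score and rank in replicate 1. Region 3R:22538960-22541281 scored 4.31 in replicate 1 and 3.80 in replicate 2, and 3R:25870825-25873647 scored 4.15 in replicate 1 and 3.76 in replicate 2.

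The fifth had the higher score and rank in replicate 2 and the widest spread in score of the 10. Region 3R:11053984-11056579 scored 3.44 in replicate 1, where it ranked 17, and 4.42 in replicate 2, where it ranked 1 (3.93 ± 0.694, n = 2). Its replicate-set score was 3.96. By rank, 3R:22538960-22541281 (2 in replicate 1 and 19 in replicate 2) and 3R:25870825-25873647 (4 and 23) lay further apart. The other 5 had higher scores in replicate 2 but, with scales that may differ, not higher ranks in general. Ranks were 6 and 9 in both replicates for 2 of them, lower in replicate 2 for 2, and higher there for 3R:4475424-4479894 (11 in replicate 1 and 8 in replicate 2). They lay at 3R:23460693-23463354 (3.86 in replicate 1 and 4.09 in replicate 2), 3R:21083278-21085829 (3.87 and 4.07) and 3R:21297567-21300337 (3.71 and 4.06).

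The last of the 5 were 3R:14583458-14585939, with 3.77 in replicate 1 and 3.93 in replicate 2, and 3R:4475424-4479894, with 3.62 and 4.06. Region 3R:4475424-4479894 was 4471 bp wide, whereas the other 9 ran from 2322 to 2823 bp. All 10 overlapped exactly 1 region in each replicate. Between neighbours in this order the combined scores differed by less than the SD between replicates in several cases, for example in 3R:25870825-25873647 and 3R:11053984-11056579, which both scored 3.96. The order below the first region is therefore loose. Of the 10 highest-ranking members in each replicate, 5 were shared, and of the 100 highest, 76.

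**Figure D2:**
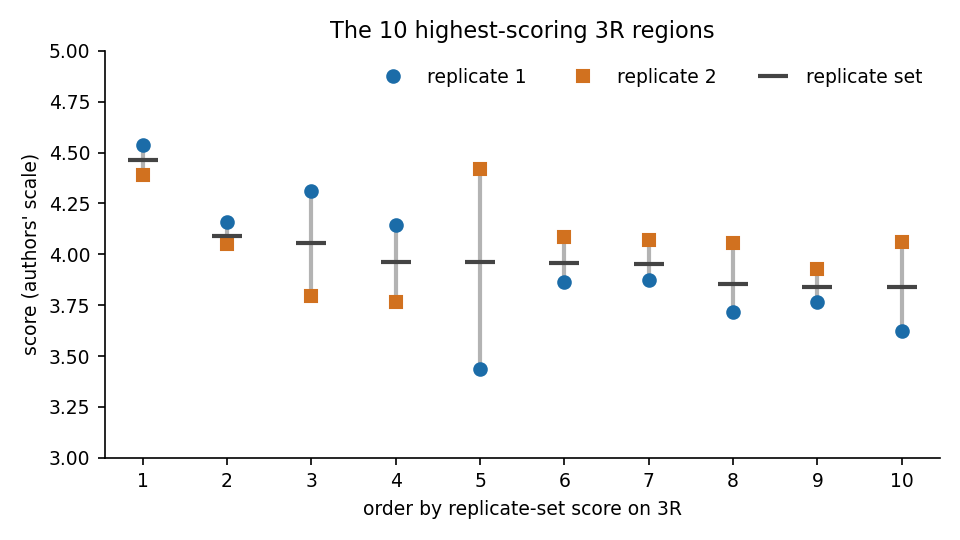
Score (the authors' scale, axis from 3 to 5) of the 10 highest-scoring 3R members found in both replicates, ordered by replicate-set score, with a circle for replicate 1, a square for replicate 2 and a bar for the replicate set. The fifth region has the widest span, 3.44 in replicate 1 and 4.42 in replicate 2, and the second the narrowest, 4.16 and 4.05.

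Over all members found in both libraries, the replicates ranked the regions alike. Spearman's rho between the replicate scores was 0.911 and Pearson's r was 0.925 over 1001 members, a correlation across regions that share their libraries. Replicate 2 gave the higher score in 624 of them (62.3%), with a median of 1.33 against 1.21 in replicate 1. Because the scales may differ between lists, positions were also compared as percentiles among the 3R regions of each replicate. The percentiles differed by a median of 7.09 points, and 641 members (64.0%) lay within 10 points. The replicate-set score was within 0.1 of the mean of both replicates in 870 members (86.9%) and below it in 821.

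**Figure D3:**
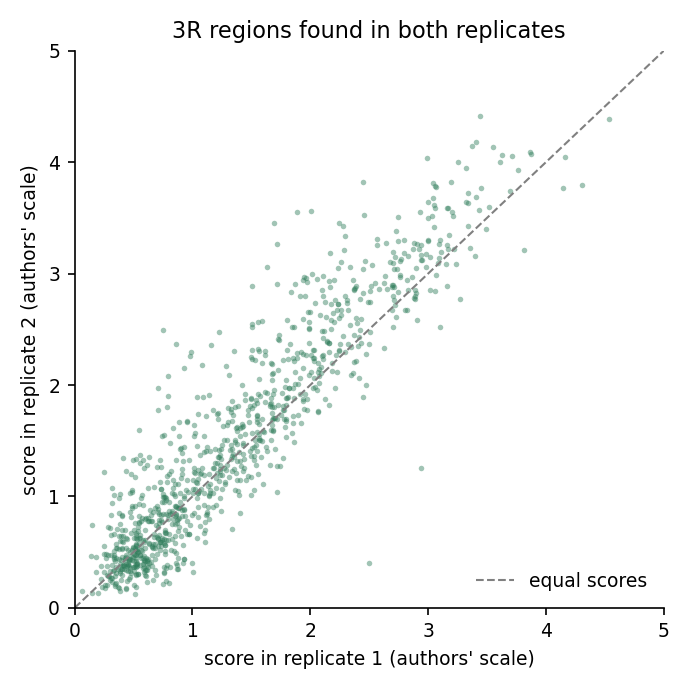
Score in replicate 1 against score in replicate 2 (both on the authors' scale) for the 1001 members found in both replicates, 1 point each, with the line of equal scores dashed. Points follow the line and lie above it in 624 members, and 2 points fall far below it, at replicate 1 scores of 2.50 and 2.94.

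Percentiles differed by more than 25 points in 59 members, of which 27 were higher in replicate 2 and 32 in replicate 1. The 5 that stood highest in replicate 2 were simple regions with 1 partner in each library. Region 3R:11038397-11040525 scored 0.252 in replicate 1 and 1.22 in replicate 2, at percentiles of 2.02 and 50.5. Region 3R:27876687-27879369, near the tip of the arm, scored 0.747 in replicate 1 and 2.50 in replicate 2, at percentiles of 40.2 and 81.3. The others, 3R:12816645-12818795, 3R:18286807-18289119 and 3R:5451921-5454065, stood 40.4, 39.8 and 36.4 points higher in replicate 2.

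The 5 that stood highest in replicate 1 included 2 that rest on how overlap was counted. Region 3R:16648999-16650845 had a replicate-set score of 0.130 and shared 1845 bp with a replicate 2 region that scored 0.404. Its partner in replicate 1, which scored 2.50, shared only 21 bp with it and lay almost wholly in the member next to it. Region 3R:18575098-18581103 matched 1 region of replicate 1 (5678 bp, score 2.94) and 2 of replicate 2, of which the wider, 2974 bp, scored 1.26. The other 3 of the 5 were plain differences in score. Region 3R:21521798-21524128 scored 1.00 in replicate 1 and 0.325 in replicate 2, 3R:23333498-23335514 scored 0.799 and 0.224, and 3R:4011456-4013454 scored 0.773 and 0.241. With reciprocal overlap of 50% required, 56 of 982 members still differed by more than 25 points.

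Edges were placed closely in both libraries. Of the 1001 members, 968 (96.7%) met exactly 1 region in each replicate. In these pairs, the median distance was 59 bp between starts and 57 bp between ends, and 863 pairs (89.2%) had both edges within 500 bp. In 40 pairs an edge differed by more than 1000 bp. Replicate 1 gave these members a median width of 2394 bp, against 2342 bp in replicate 2.

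The remaining 33 members joined regions that at least 1 replicate kept apart. In 15 of them replicate 2 held 2 regions and replicate 1 held 1, in 11 the reverse, and in 7 both held 2. The 7 split in both were wide, at a median of 7781 bp, whereas members with 1 region in each replicate were 2455 bp. Conversely, 2 regions of replicate 1 and 4 of replicate 2 each overlapped 2 members.

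Of the 5 widest members, 4 were of this joined kind. The widest, 3R:5902432-5916093, was 13662 bp long and scored 2.22. In replicate 1 it formed a single region of 13650 bp that scored 2.24. In replicate 2 it was divided into regions of 6875 bp and 6188 bp, with scores of 2.73 and 1.37 and fewer than 100 bp between them. The next, 3R:10102629-10115656, covered 13028 bp and showed the opposite split, with 1 region of 12967 bp (score 1.74) in replicate 2 and regions of 4172 bp (2.51) and 7476 bp (1.05) in replicate 1.

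The third, 3R:4872091-4884515, was 12425 bp long, scored 2.61 and was a single region in each library, of 12452 bp in replicate 1 and of 11990 bp in replicate 2. In the next widest, 3R:6202829-6215088 and 3R:9622749-9634594, both libraries held 2 regions. For 3R:6202829-6215088 the larger piece was 7626 bp (score 2.71) in replicate 1 and 7488 bp (2.88) in replicate 2, and the smaller 2668 bp (0.941) and 3018 bp (1.04). A further split member, 3R:7596024-7607258, was 1 region of 11245 bp in replicate 1 (score 2.24) and 2 in replicate 2, where the piece of 4475 bp scored 1.28 and that of 5351 bp scored 3.45. In these split members the pieces of 1 replicate differed in score.

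By replicate-set score, the highest found in replicate 1 alone were 3R:27537472-27540056 (replicate 1 score 0.830), 3R:23893335-23895101 (1.10) and 3R:25607286-25609391 (0.734). These lay at percentiles of 44.8, 54.7 and 39.3 among the 3R regions of that list, and the nearest replicate 2 regions were 2066, 31353 and 4891 bp away. The highest by replicate-set score in replicate 2 alone were 3R:8227786-8229919 (replicate 2 score 1.52), 3R:9664876-9667014 (1.02) and 3R:19551668-19554847 (1.16), at percentiles of 59.9, 43.8 and 48.6. The first of these, with a replicate-set score of 0.906, lay above the median score of the members and was missing from replicate 1.

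Of the members in neither replicate, 2 scored far above the rest of their class. Region 3R:8296758-8298017, 1260 bp wide, scored 2.34 and ranked 191 of all members. The nearest replicate 1 region was 2189 bp away and the nearest replicate 2 region 16993 bp away. Region 3R:19341296-19342476, 1181 bp wide, scored 1.55, with the nearest regions 21328 bp away in replicate 1 and 88047 bp away in replicate 2. The next 3 of the class scored 0.561, 0.550 and 0.515, at 3R:8961347-8962518, 3R:25478365-25479831 and 3R:8333706-8335218. In the other direction, 12 replicate 1 regions of the stretch (1.01%, against 0.832% of that whole list) and 13 of replicate 2 (1.17%, against 0.954%) overlapped no enriched region of the replicate set, with scores up to 0.530 and 0.363.

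Along the arm, HP1c regions were unevenly spread and the libraries placed them alike. In 26 bins of 1 Mb, the last of 0.905 Mb, counts ran from 31 to 77 in replicate 1, with a median of 44, and from 26 to 72 in replicate 2, with a median of 41. Across bins, Pearson's r between the replicate counts was 0.953 and Spearman's rho was 0.931. Replicate 1 held more regions in 22 bins, replicate 2 in 3, and 1 bin was equal.

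The densest bin, 3R:5000001-6000000, held 77 regions in replicate 1 and 72 in replicate 2 (74.5 ± 3.54, n = 2), and regions covered 20.9% and 18.9% of it. It contains the second strongest and the widest member. The next were 3R:7000001-8000000 with 65 and 61 regions (63.0 ± 2.83) and 3R:14000001-15000000 with 63 and 59 (61.0 ± 2.83). The sparsest were 3R:26000001-27000000 with 31 and 26 regions (28.5 ± 3.54), 3R:15000001-16000000 with 32 and 29 (30.5 ± 2.12), and 2 bins tied at 32.5, 3R:2000001-3000000 and 3R:6000001-7000000. Dense and sparse bins lay side by side, since 3R:6000001-7000000, with 35 and 30 regions, separates the densest 2.

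At the scale of 1 Mb bins, density and strength did not run together. Spearman's rho across bins between mean count and median replicate-set score was -0.158. The sparse bin 3R:15000001-16000000 had the highest median score of replicate 2 (1.97), whereas in replicate 1 its median was 1.23. Region counts had no trend from the proximal to the distal end (rho -0.0294), while the median replicate-set score was lower towards the tip (rho -0.566). The replicates shared that trend unequally, with rho of -0.535 in replicate 1 and -0.235 in replicate 2.

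**Figure D4:**
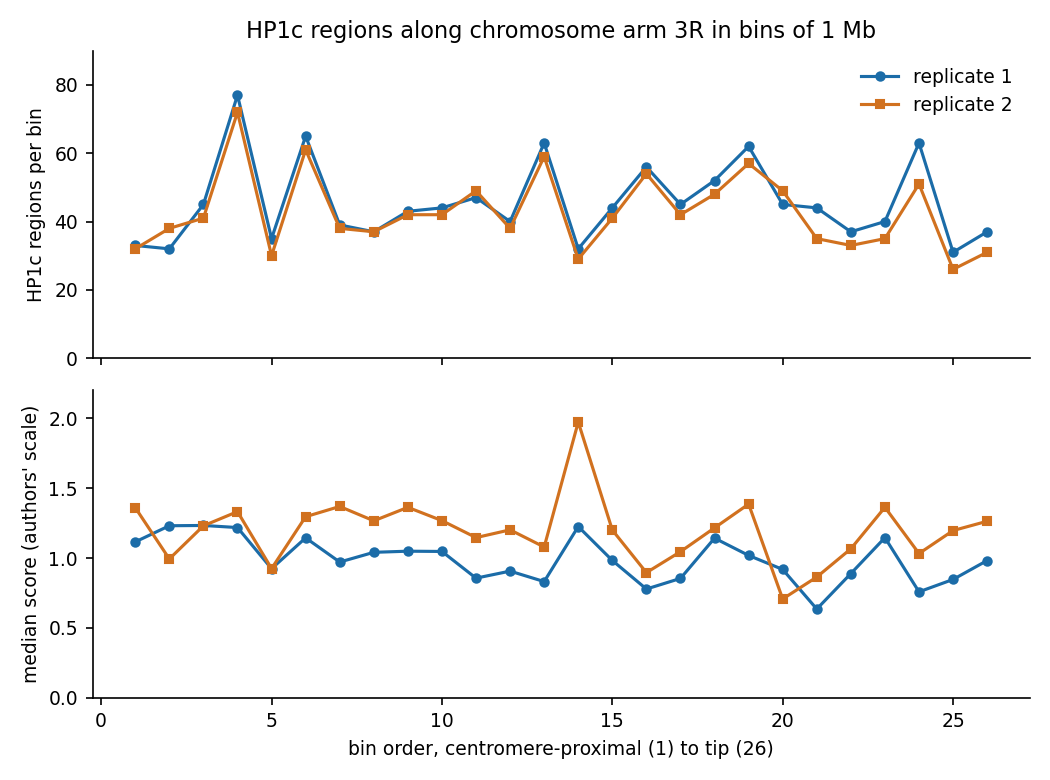
HP1c regions per 1 Mb bin (upper) and their median score on the authors' scale (lower) in replicate 1 (circles) and replicate 2 (squares), from the proximal end of 3R (bin 1) to the tip (bin 26). The counts peak in bin 4 at 77 in replicate 1 and 72 in replicate 2, and in each of the last 6 bins replicate 1 holds more regions.

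Towards the tip the libraries diverged in number. In 4 parts of equal length, 6.48 Mb each, replicate 1 held 309, 287, 315 and 277 regions from the proximal to the distal part, and replicate 2 held 294, 280, 298 and 238. The ratio of replicate 2 to replicate 1 was 0.951, 0.976, 0.946 and 0.859. In the distal part 53 members were found in replicate 1 alone and 17 in replicate 2 alone, and 67.6% of members were in both, against 72.9% to 76.4% in the other 3. The distal parts of X, 2L, 2R and 3L had ratios of 0.903, 0.956, 0.933 and 0.934. In these parts 65.2%, 72.9%, 79.1% and 75.8% of replicate-set regions were in both replicates, so the share on X was below that on 3R. This split was chosen after the bin counts were seen, and no test was made of it.

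Members lay in short runs separated by wide gaps. The median gap between neighbouring members was 6610 bp, and 10% of gaps were under 780 bp and 10% over 42597 bp. With members joined into a run where the gap was at most 5 kb, 462 members (33.7%) stood alone, 720 (52.6%) lay in 291 runs of 2 to 4, and 187 (13.7%) in 31 runs of 5 or more. The median score was 0.603 for members that stood alone, 0.844 in runs of 2 to 4 and 1.08 in runs of 5 or more. The shares found in both replicates were 67.3%, 74.9% and 80.7%. Median width rose in the same order, at 2136.5, 2307 and 2436 bp, and a difference apart from width was not tested. Scores of adjacent members were nearly unrelated, with Spearman's rho of 0.0958 over 1368 neighbouring pairs.

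The longest runs held 10 members each and are shown because they differ in form. They were chosen after their values were seen. The run at 3R:5375819-5418066 spans 42248 bp in the densest bin, and its members are separate regions of 2000 to 2746 bp that cover 56.9% of it. All 10 were found in both replicates, as 10 regions in each. Its strongest member, 3R:5402375-5404895, scored 3.05 in replicate 1 and 3.42 in replicate 2, and its weakest, 3R:5395251-5397250, scored 0.332 and 0.476, fewer than 10 kb away.

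The run at 3R:12029890-12087726 spans 57837 bp and is made of broader regions of 2000 to 7022 bp, which cover 77.8% of it. Of its members, 9 were found in both replicates and 3R:12042418-12044417 in replicate 2 alone. The strongest were 3R:12059721-12064044, with 2.98 in replicate 1 and 3.18 in replicate 2, and 3R:12045437-12052458, with 3.09 and 3.14. Between them lies 3R:12055540-12058949, which scored lower, with 0.856 in replicate 1 and 0.907 in replicate 2. Its replicate-set score of 0.779 was close to the median of all members, 0.773.

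**Figure D5:**
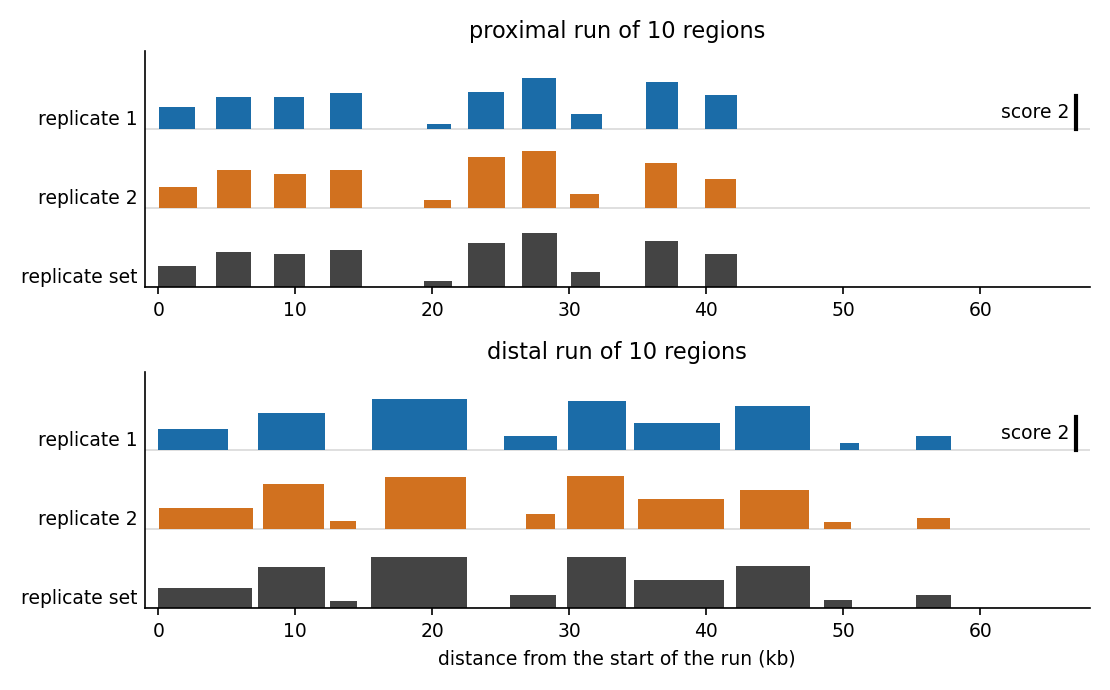
The 2 longest runs of 3R members, as distance from the start of the run in kb, with each region of replicate 1, replicate 2 and the replicate set drawn as a box whose height is its score (scale bar, score 2). The proximal run covers 42248 bp with boxes of like width in all lists, and the distal run covers 57837 bp with wider boxes, of which 1 is missing from replicate 1.

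The longest gaps between members held few regions of either replicate. This was almost fixed in advance, because gaps were defined by the replicate set. Only 12 replicate 1 regions and 13 replicate 2 regions of the stretch overlapped no enriched region of that set. The longest gap, 3R:3076477-3298408, spans 221932 bp with no region inside it in either replicate. The same held for 3R:15884615-16077305 (192691 bp), 3R:6239998-6422587 (182590 bp) and 3R:26715818-26878730 (162913 bp). In 3R:26428808-26606370 (177563 bp), replicate 1 held 2 regions that the replicate set does not, and replicate 2 held none. An empty stretch can also come from sequence to which reads map poorly, and mappability was not tested. Of the members, 21 (1.53%) had no other member within 50 kb. Of these 21, 10 were found in both replicates, against 1001 of all 1369 members. The median score of the 21 was 0.396, against 0.773 over all members.

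Compared with the other large arms, each without the 2 Mb next to its centromere, 3R and 2L carried the fewest regions for their length. On 3R there were 45.9 regions per Mb in replicate 1 and 42.8 in replicate 2 (44.4 ± 2.13, SD, n = 2), against 61.5 ± 1.80 on X, 51.4 ± 2.18 on 2R, 48.5 ± 0.345 on 3L and 44.0 ± 1.11 on 2L. The values of 3R and 2L overlapped, and those of the other 3 arms were higher than either 3R value. Coverage was 11.5% ± 0.529 on 3R, 17.2% ± 0.625 on X, 13.2% ± 0.690 on 2R, 12.3% ± 0.241 on 3L and 11.6% ± 0.211 on 2L.

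Median scores were higher on 3R than on the other autosomal arms in each library. In replicate 1 the median was 0.942 on 3R, against 1.06 on X, 0.903 on 2L, 0.897 on 2R and 0.896 on 3L. In replicate 2 it was 1.20 on 3R, against 1.16 on X, 1.07 on 2L, 1.06 on 2R and 0.986 on 3L. The 90th percentile of score was likewise highest on 3R in each replicate, at 2.63 and 2.98. The differences between the replicates of an arm were larger than most of these, with a median of 1.07 ± 0.185 on 3R and 0.989 ± 0.121 on 2L (SD, n = 2). Replicate 2 had the higher median on every arm, so this SD includes a difference between libraries that the arms share. It does not measure the uncertainty of the order of arms within a library, and no test was made. Wide regions made up 3.91% ± 0.305 of regions on 3R at 5 kb or more, against 8.16% ± 0.606 on X, 5.24% ± 0.361 on 2L, 3.98% ± 0.554 on 3L and 3.40% ± 0.215 on 2R.

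Close spacing was similar to that of 2R. On 3R 62.2% ± 1.82 of regions had a neighbour within 5 kb, against 71.1% ± 0.395 on X, 62.6% ± 0.723 on 2R, 58.8% ± 0.580 on 2L and 58.3% ± 2.10 on 3L (SD, n = 2). The median gap was 7571 ± 393 bp on 3R, 7495 ± 124 bp on 2R, 7889 ± 229 bp on 2L, 8239 ± 14.1 bp on 3L and 5395 ± 262 bp on X. By gap, the replicate values of 3R overlapped those of 2L as well as those of 2R.

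The limit at 2 Mb cut no region. The last regions left out were 3R:1886066-1887887, with a score of 0.215, and 3R:1966042-1968375, with 0.830. The first members were 3R:2170590-2172810, with 1.34, and 3R:2175291-2180701, with 1.49. In all, 134 of the 1503 enriched 3R regions of the replicate set were left out.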

How the data were processed

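Region lists of 2 HP1c ChIP libraries and of the authors' replicate set were read. The submitters' processing notes name Bowtie 0.12.7, and the file headers give FlyBase release 5 as the genome build. The region score was deposited by the authors. Its scale, the region caller and its limits, and how the replicate set was built, were not given in the sources used here. Regions named as depleted were left out of all comparisons.

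Members were matched to replicate regions by shared base pairs. Where a member met several regions, the one sharing most base pairs gave its score. Gaps, runs, bins and percentiles were computed with pandas 2.3.3 and numpy 2.4.6 under Python 3.11.15, intervals with scipy 1.17.1 and figures with matplotlib 3.10.9. The overlap code was tested on simulated data. Shares carry exact (Clopper-Pearson) 95% intervals for counting error alone. Depth is unknown.

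Named regions followed a rule: the 10 strongest in both replicates, the 5 widest, the 5 differing most in percentile each way, the 5 strongest in neither, the 3 highest by replicate-set score found in each replicate alone, the 3 most split with ties broken by width, the extreme bins and the 5 longest gaps. Members, lists and rules were chosen with earlier results of these data known. The gene table used here describes release 6, so no gene or sequence was assigned to a region.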

Additional observations from a re-analysis of the deposited data

How the results depend on the processing

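Of 28 alternatives over 6 results, 19 stayed within the SD between replicates, the binomial interval or, for the rank correlation, 0.05, and 9 moved beyond it. For density, coverage, median width and close spacing, the main value is the mean of 2 replicates. Leaving out 1 replicate cannot move such a mean beyond the SD, so those alternatives count as unmoved whatever the data. The share of members in both replicates was 99.6% in the upper 50% by score, and between 78.8% and 84.7% when overlap with 1 replicate was enough (without replicate 1 and without replicate 2). In the upper 50% by score, density was 22.2 regions per Mb and coverage 6.81%, which follows from taking part of the list. Merging regions within 500 bp gave a median width of 2328 bp, and 58.4% with a neighbour within 5 kb. That share was 36.4% within 2 kb and 79.2% within 10 kb. Without each replicate, density ran from 42.8 to 45.9 per Mb, coverage from 11.1% to 11.9%, median width from 2287 to 2304 bp and close spacing from 60.9% to 63.5%. The rank correlation lay between 0.907 and 0.916 where Spearman's rho was kept, and Pearson's r, its remaining alternative, was 0.925. No paired analysis was possible because inputs carry no list to set against the ChIP lists. Depth could not be examined.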

Other observations

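The replicate set names 2 depleted regions within the 3R stretch, which none of the comparisons above uses. Region 3R:13846326-13847986 had a score of -0.0422, and replicate 2 lists nearly the same interval, 3R:13846325-13848053, as enriched with a score of 0.111. Region 3R:21356924-21358435 had a score of -0.0129 and overlapped no region of either replicate. In the proximal stretch left out, 3R:1182981-1184852 had a score of -0.0281 and matched a replicate 2 region from 1182992 to 1184837 that was enriched with a score of 0.171. Neither replicate lists a depleted region on 3R.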
